A study of Rattus norvegicus with 21 samples.

Results

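In renal cortex, 5 transcripts of the VEGF and endothelin systems and of the endothelium were examined, 5 of the 26404 Ensembl genes counted in the ZDSD experiment. They were taken by identifier, and a gene would have been dropped if it lay on another chromosome than the one given for it. No gene was dropped, and all 5 passed the filter on low counts. The genes were Vegfa (ENSRNOG00000019598, vascular endothelial growth factor A), Kdr (ENSRNOG00000046829, VEGF receptor 2), Flt1 (ENSRNOG00000000940, VEGF receptor 1), Nos3 (ENSRNOG00000009348, endothelial nitric oxide synthase) and Edn1 (ENSRNOG00000014361, preproendothelin-1).

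RNA-seq was performed on renal cortex of male rats at 37 weeks of age, and the rats fell into 3 groups. SD rats were healthy Sprague Dawley controls (n=6). SHAM rats were Zucker Diabetic Sprague Dawley (ZDSD) rats, a strain that develops obesity and type 2 diabetes with intact leptin signalling, and had sham surgery (n=9). DMT rats, which the labels call Medical bypass, were ZDSD rats with the same sham surgery that received dietary restriction plus daily fenofibrate, metformin, ramipril, rosuvastatin and liraglutide after it (n=6). SHAM and DMT rats also shared insulin degludec before surgery, and all 3 groups ate the same chow. SHAM and SD rats thus differ in strain, diabetes, insulin and surgery with its drugs at once, which cannot be told apart. DMT and SHAM rats differ in food intake and in 5 drugs at once, which cannot be told apart either. Sham libraries with fewer than 1000000 counts were left out, which removed 2 of the 9 (rats 343 and 348, 121511 and 101534 counts) and left 19 of 21 libraries. According to the labels, the libraries of SD and SHAM rats come from samples deposited before and those of DMT rats do not. The labels do not say whether handling differed, and any such difference and the DMT intervention cannot be told apart. In the 19 rats the total ranged from 14502127 to 27597901 counts, and 3 counts equal 0.109 to 0.207 CPM (counts scaled to a common library total). The labelled tissue could not be checked against markers of cortical cell types, because the files carry identifiers without symbols and 0 of them matched the reference table.

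VEGF-A is made in the kidney mainly by podocytes and tubular cells and acts on receptors of the neighbouring glomerular and peritubular endothelium. Kdr carries most of the mitogenic and survival signal, whereas Flt1 binds VEGF-A more tightly, signals weakly, and is also made as a soluble form that sequesters the ligand. Signalling through Kdr activates Nos3, whose product nitric oxide relaxes vascular smooth muscle. Endothelin-1, released from Edn1-expressing endothelial and tubular cells, constricts vessels and acts on mesangial cells and podocytes. As whole cortex was sequenced, fewer cells of a type and less RNA per cell cannot be told apart.

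In the rn5 build used for the counts, Vegfa spans chr9:16232415-16247655 on the plus strand with 3543 exonic bases in 8 exon blocks. Kdr spans chr14:34557361-34618109 (plus strand, 5873 exonic bases, 30 exon blocks). Flt1 spans chr12:11155072-11322925 (plus strand, 4733 exonic bases, 30 exon blocks). Nos3 spans chr4:7333452-7353763 (minus strand, 3953 exonic bases, 26 exon blocks), and Edn1 spans chr17:24118009-24124009 (minus strand, 1390 exonic bases, 5 exon blocks). Counts were summed over all exons of a gene, so the soluble and membrane forms of Flt1 and the splice forms of Vegfa were not separated. Flt1 overlaps 1 gene on the opposite strand, and the counting used the strand. All 5 genes lie on the same chromosome and strand in RefSeq.

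The promoters of Nos3, Flt1 and Kdr are shown because the Nos3 level differed between ZDSD and SD rats and because the counts of Flt1 and Nos3 relative to Kdr differed between groups. Each sequence is the 250 bases before the RefSeq start site in the GRCr8 build, read 5′ to 3′ in the direction of transcription, and these coordinates do not belong to the rn5 build. Capitals mark the GC box (GGGCGG, or CCGCCC where it is read on the other strand) and, in Flt1 alone, the cAMP response element (TGACGTCA). Nos3 lies at chr4:11706582-11706831 on the minus strand, Flt1 at chr12:12333180-12333429 and Kdr at chr14:32571813-32572062, both on the plus strand.
Nos3: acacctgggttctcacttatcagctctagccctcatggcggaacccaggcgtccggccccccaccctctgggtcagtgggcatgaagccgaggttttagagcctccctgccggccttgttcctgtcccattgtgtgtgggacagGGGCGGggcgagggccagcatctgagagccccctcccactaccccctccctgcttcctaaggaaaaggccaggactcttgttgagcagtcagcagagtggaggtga
Flt1: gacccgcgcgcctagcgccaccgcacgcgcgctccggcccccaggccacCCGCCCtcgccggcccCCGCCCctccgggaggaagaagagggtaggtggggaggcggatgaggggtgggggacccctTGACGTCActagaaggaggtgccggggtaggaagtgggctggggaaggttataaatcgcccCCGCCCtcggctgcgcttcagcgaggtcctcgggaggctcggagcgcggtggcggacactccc
Kdr: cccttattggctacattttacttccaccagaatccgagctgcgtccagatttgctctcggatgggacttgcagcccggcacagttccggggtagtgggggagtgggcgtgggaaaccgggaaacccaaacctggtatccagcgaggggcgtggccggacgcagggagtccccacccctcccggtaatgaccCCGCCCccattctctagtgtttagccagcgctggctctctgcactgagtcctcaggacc

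Each of 5 motifs was searched on both strands in the 250 bases of all 33469 RefSeq promoters. Vegfa has 2 start sites there, and its motifs were counted at the first of them only. The GC box occurred 3 times in Vegfa and in Flt1, once in Kdr and once in Nos3, was not found in Edn1, and was present in 30.5% of all promoters. The cAMP response element of Flt1 was present in 1.59% of promoters and in no other of the 5 genes. The core of the hypoxia response element (ACGTG), which is bound by hypoxia-inducible factors, was found once in Edn1 and in 16.6% of promoters. The AP-1 site (TGANTCA, present in 6.34% of promoters) and the direct repeat bound by PPAR receptors (0.0508%) were not found in the 5 windows. The motifs do not overlap each other in these promoters, and a match is a description of letters only.

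Across the 19 rats the 5 genes covered a wide range of levels. On the scale of TMM-normalised CPM per kilobase of exon, which allows genes to be compared, the mean level was 88.0 for Vegfa, 29.1 for Kdr, 23.1 for Flt1, 4.37 for Nos3 and 3.09 for Edn1. Vegfa lay above 92.4% of the 14664 genes tested, Kdr above 74.8%, Flt1 above 69.1%, Nos3 above 28.3% and Edn1 above 23.5%. The growth factor was thus the most abundant of these transcripts per length, and both receptors lay well above Nos3 and Edn1. Counts per rat ranged from 4590 to 9339 for Vegfa, from 2250 to 5043 for Kdr, from 1462 to 3575 for Flt1, from 229 to 541 for Nos3 and from 55 to 138 for Edn1.

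DMT and SHAM rats did not differ past the thresholds in any of the 5 genes. Nos3 was the only gene past the thresholds in both ZDSD groups against SD rats, and it was higher in both. A gene was called when its adjusted p-value (edgeR quasi-likelihood test, Benjamini-Hochberg over all 14664 genes) was under 0.05 and its absolute fold-change at least 1.3. In DMT vs SHAM 0 of 5 genes were called, and DESeq2 also called 0. Flt1 had an unadjusted p-value of 0.0429 there (edgeR quasi-likelihood test). That p-value stood only at rank 4718 of the 14664 genes, so nothing is read from it. Of all genes 11.5% were called in that comparison and 4.12% were called as higher. In SHAM vs SD 1 of 5 was called, as higher, against 18.3% of all genes called in either direction and 10.3% called as higher. In DMT vs SD 1 of 5 was called, also as higher, against 18.2% of all genes called and 8.01% called as higher. A share of 1 in 5 is near the share of all genes called, and nothing is read from the count. The median log2 fold-change of the 5 genes was 0.01 between DMT and SHAM rats, 0.25 between SHAM and SD rats and 0.30 between DMT and SD rats. Over all genes it was -0.0040, 0.0056 and 0.0078. TMM scaling brings the median of all genes close to no difference, so nothing is read from this contrast. SHAM vs SD and DMT vs SD share their SD rats.

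**Figure D1:**
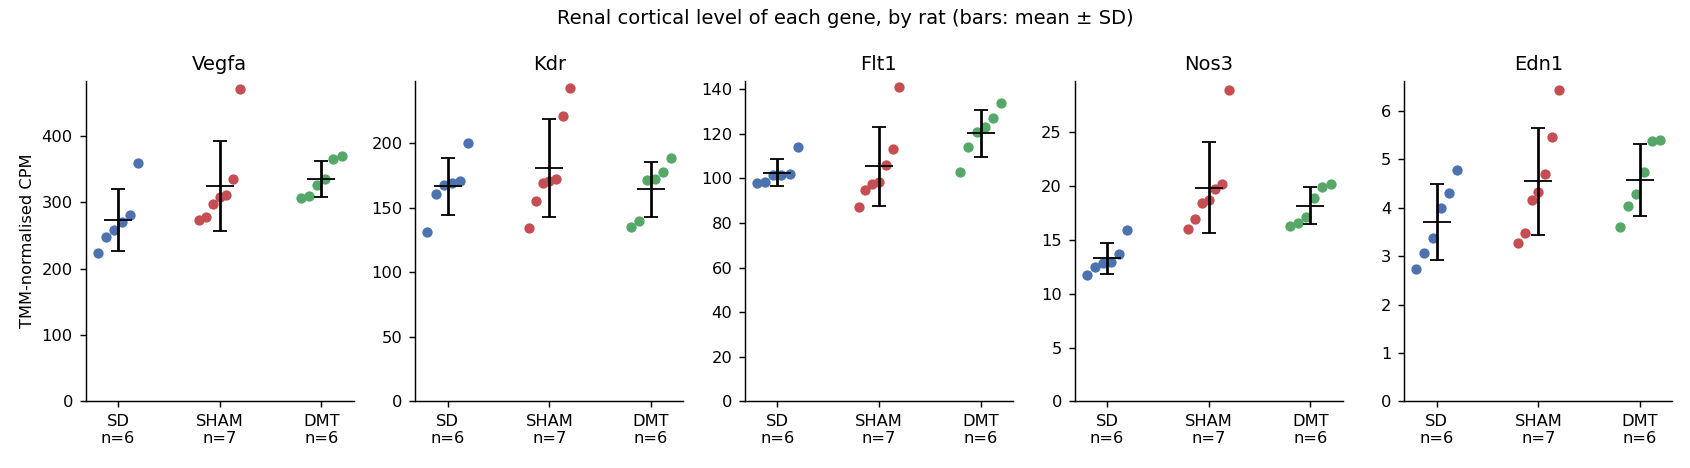
Level of each gene in TMM-normalised CPM (y axis, from 0) in each rat of the SD (n=6), SHAM (n=7) and DMT (n=6) groups. Points are rats and black bars are mean ± SD. Every SHAM and DMT rat lies above the highest SD rat for Nos3, while the groups overlap for the other 4 genes. The share of all genes with such a separation was not counted.

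Vegfa, the ligand, measured 223 TMM-normalised CPM in the lowest, 265 in the median and 359 in the highest SD rat. In SHAM rats these values were 274, 308 and 470, and in DMT rats they were 307, 331 and 369. All 7 SHAM rats and all 6 DMT rats lay above the SD median, yet SD rat 353 was higher than 4 of the 6 DMT rats and than 6 of the 7 SHAM rats, so that the groups overlapped. Mean levels were 273 ± 46.6 (SD, n=6) in SD, 325 ± 67.4 (SD, n=7) in SHAM and 335 ± 26.8 (SD, n=6) in DMT rats. Vegfa in DMT vs SHAM had a log2 fold-change of 0.05 (95% interval -0.20 to 0.29, adjusted p=0.818), and 0.17 without SHAM rat 333 (adjusted p=0.209). In SHAM vs SD the log2 fold-change was 0.25 (SE 0.12, adjusted p=0.104), and in DMT vs SD it was 0.30 (SE 0.12, adjusted p=0.0694). Neither difference from SD rats was thus called. The DMT vs SD difference lay near the thresholds. It was 0.39 and called without SD rat 353 (adjusted p=0.0127) and by an exact permutation test of log2 CPM scaled by library totals (0.39, unadjusted p=0.0152). Its adjusted p-value was 0.0139 without SHAM rat 333 and 0.0287 with the 2 groups alone, at a log2 fold-change of 0.30 in both, which is under the fold threshold. The SHAM vs SD value was 0.14 without SHAM rat 333 and 0.34 (adjusted p=0.0211, under the fold threshold) without SD rat 353. When libraries were scaled by their totals alone, the SHAM vs SD difference was 0.38 and was called (adjusted p=0.0338).

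Kdr, the main signalling receptor, ranged from 131 to 200 TMM-normalised CPM in SD rats (median 168), from 134 to 242 in SHAM rats (median 171) and from 135 to 188 in DMT rats (median 171). The medians lay close together and the groups overlapped, with SHAM rats 315 and 333 above every other rat. Mean Kdr levels were 166 ± 22.2 (SD, n=6), 181 ± 37.7 (SD, n=7) and 164 ± 21.6 (SD, n=6) in SD, SHAM and DMT rats. The log2 fold-change of Kdr was -0.14 in DMT vs SHAM (95% interval -0.40 to 0.12, adjusted p=0.458) and 0.12 in SHAM vs SD (95% interval -0.14 to 0.38, adjusted p=0.467). In DMT vs SD it was -0.02 (95% interval -0.29 to 0.25, adjusted p=0.919), and it turned to 0.05 with library totals alone. Without SHAM rat 333 the values were -0.05 in DMT vs SHAM and 0.03 in SHAM vs SD. The intervals include no difference in all 3 comparisons.

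Flt1, the receptor that also acts as a decoy, measured 98.0 TMM-normalised CPM in the lowest, 101 in the median and 114 in the highest SD rat. SHAM rats measured 87.2, 98.2 and 141, and DMT rats 103, 122 and 134. Of the DMT rats, 5 of 6 lay above the highest SD rat, and all 6 lay above the SHAM median. DMT rat 329 (114.14) was only just above SD rat 353 (114.07). With library totals alone it was below that rat (113.9 and 114.9 CPM). SHAM rat 333 was above every DMT rat, and thus DMT and SHAM rats overlapped. Mean Flt1 levels were 103 ± 5.88 (SD, n=6) in SD, 105 ± 17.7 (SD, n=7) in SHAM and 120 ± 10.7 (SD, n=6) in DMT rats. Flt1 in DMT vs SHAM had a log2 fold-change of 0.19 (SE 0.09, 95% interval 0.01 to 0.37, adjusted p=0.133). Without SHAM rat 333 it was 0.28 (adjusted p=0.00610), which is below the 1.3-fold threshold, so Flt1 was not called in either fit. In DMT vs SD the log2 fold-change was 0.23 (SE 0.09, 95% interval 0.04 to 0.42, adjusted p=0.0612). That comparison had an adjusted p-value under 0.05 with DESeq2 (0.0486), with library totals (0.0354), with the 2 groups alone (0.0102) and without SHAM rat 333 (0.00982), and an unadjusted p of 0.00649 in the exact permutation test. In each of these the difference was under the fold threshold, at 0.22 to 0.30. In SHAM vs SD it was 0.04 (95% interval -0.14 to 0.22, adjusted p=0.753), and it turned to -0.05 without SHAM rat 333.

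Nos3, the endothelial synthase of nitric oxide, measured 11.8 TMM-normalised CPM in the lowest, 12.9 in the median and 15.98 in the highest SD rat. SHAM rats measured 16.05, 18.7 and 28.9, and DMT rats 16.3, 18.0 and 20.2. No SHAM or DMT rat fell to the level of any SD rat, although the lowest SHAM rat and the highest SD rat were separated by a margin far below the spread within groups. The share of all genes separated in this way was not counted, so nothing is read from the separation itself. DMT and SHAM rats overlapped. Mean Nos3 levels were 13.3 ± 1.46 (SD, n=6) in SD, 19.9 ± 4.25 (SD, n=7) in SHAM and 18.2 ± 1.72 (SD, n=6) in DMT rats. Nos3 was 1.49-fold higher in SHAM than in SD rats (log2 fold-change 0.58, SE 0.11, 95% interval 0.34 to 0.81, adjusted p=0.000783). It was 1.37-fold higher in DMT than in SD rats (log2 fold-change 0.45, SE 0.12, 95% interval 0.21 to 0.69, adjusted p=0.00559). Between DMT and SHAM rats the log2 fold-change was -0.13 (95% interval -0.36 to 0.10, adjusted p=0.451), and without SHAM rat 333 it was -0.01 (adjusted p=0.952). Without that rat Nos3 was still called in SHAM vs SD, at a log2 fold-change of 0.46 (adjusted p=0.000350). By its p-value Nos3 stood at rank 980 of 14664 genes in SHAM vs SD and at rank 2328 in DMT vs SD.

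Edn1, the precursor of endothelin-1, measured 2.73 TMM-normalised CPM in the lowest, 3.69 in the median and 4.79 in the highest SD rat. SHAM rats measured 3.28, 4.33 and 6.43, and DMT rats 3.59, 4.51 and 5.41. In each ZDSD group 2 rats lay above the highest SD rat and the others lay within its range. Mean Edn1 levels were 3.71 ± 0.788 (SD, n=6) in SD, 4.55 ± 1.11 (SD, n=7) in SHAM and 4.57 ± 0.737 (SD, n=6) in DMT rats. The log2 fold-change of Edn1 was 0.29 in SHAM vs SD (95% interval -0.05 to 0.64, adjusted p=0.172) and 0.30 in DMT vs SD (95% interval -0.05 to 0.66, adjusted p=0.183). In DMT vs SHAM it was 0.01 (95% interval -0.33 to 0.35, adjusted p=0.981), and it turned to -0.05 with library totals alone. With 55 to 138 counts per rat, Edn1 had the widest intervals of the 5 genes. Without SHAM rat 333 the log2 fold-change of Edn1 was 0.19 in SHAM vs SD and 0.11 in DMT vs SHAM.

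**Figure D2:**
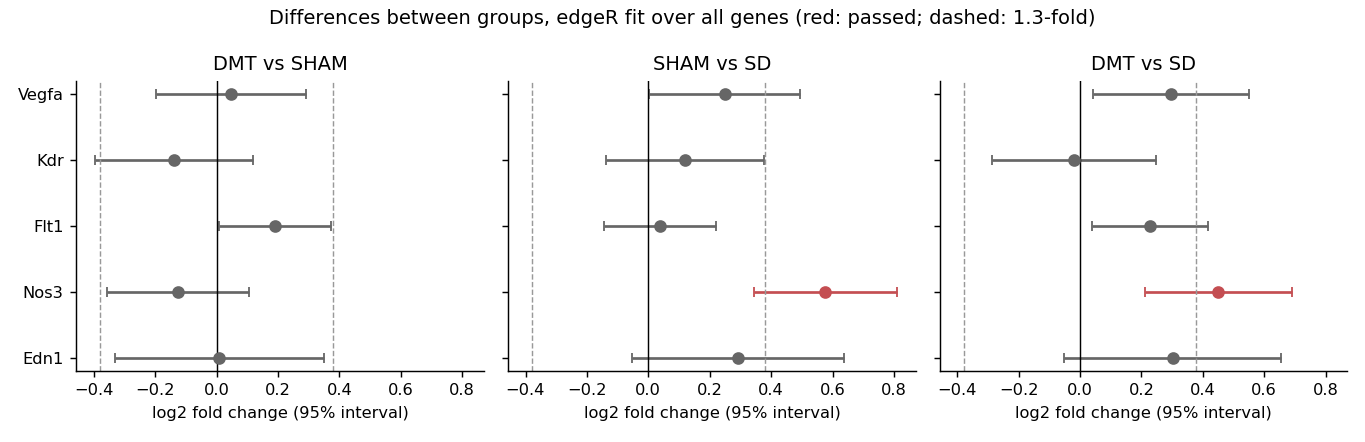
Log2 fold-change (points, x axis) with its 95% interval (bars) for the 5 genes in each of the 3 comparisons of groups, from the edgeR fit over 14664 genes. Dashed lines mark a 1.3-fold difference, and red marks the 2 results that were called, both for Nos3, at 0.58 and 0.45.

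The order of the groups differed between genes. Mean levels of Vegfa and Edn1 were lowest in SD, then SHAM and then DMT rats, with SHAM and DMT rats differing by less than the spread of either group and in the opposite order when library totals alone were used (Vegfa 340.03 and 337 CPM, Edn1 4.77 and 4.59 CPM in SHAM and DMT rats). The order of Flt1 was the same, and neither SD and SHAM rats nor SHAM and DMT rats differed by more than the spread of SHAM rats. Nos3 was highest in SHAM rats, and Kdr was highest in SHAM and lowest in DMT rats with no pair of groups apart beyond the spread. The coefficient of variation of SHAM rats was 16.8% for Flt1 to 24.3% for Edn1, and without rat 333 it was 7.49% for Vegfa, 8.74% for Nos3, 9.14% for Flt1, 16.8% for Kdr and 18.9% for Edn1. It was 5.73% to 21.2% in SD rats and at most 16.1% in DMT rats.

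The counts of Flt1, Nos3 and Vegfa were also divided by the count of Kdr in the same rat, which removes the scaling of libraries, and the log2 ratios were compared by two-sided exact permutation tests adjusted over 9 tests. To pass, a ratio needed an adjusted p-value under 0.05 and no fold threshold was set, a looser rule than the one for genes. Relative to Kdr, Flt1 was higher in DMT than in SHAM rats, Nos3 was higher in both ZDSD groups than in SD rats, and Vegfa was higher in DMT than in SD rats. The Flt1 difference (1.25-fold) and the Vegfa difference (1.26-fold) were under the 1.3-fold required of a gene. A ratio does not tell which of its terms differed, and the 3 ratios share Kdr. The ratios are of counts and are not corrected for gene length.

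The Flt1 to Kdr ratio was 0.513 in the lowest, 0.580 in the median and 0.683 in the highest SHAM rat, and 0.598, 0.725 and 0.894 in DMT rats. It was 0.570, 0.606 and 0.748 in SD rats. Of the 6 DMT rats, 5 lay above the highest SHAM rat, and rat 325 lay within the SHAM range. Means were 0.623 ± 0.0632 (SD, n=6) in SD, 0.590 ± 0.0581 (SD, n=7) in SHAM and 0.742 ± 0.103 (SD, n=6) in DMT rats. The ratio was 1.25-fold higher in DMT than in SHAM rats (exact p=0.00583, adjusted p=0.0131). This held when each rat was left out in turn, with log2 differences from 0.27 to 0.38. DMT vs SD gave a log2 difference of 0.25 (exact p=0.0476, adjusted p=0.0857), which passed without DMT rat 325 or without SD rat 355, at 0.30 in both (exact permutation test, adjusted p=0.0195). SHAM vs SD gave -0.08 (exact permutation test, adjusted p=0.374).

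The Nos3 to Kdr ratio was 0.0807 ± 0.0101 (SD, n=6) in SD, 0.111 ± 0.0171 (SD, n=7) in SHAM and 0.112 ± 0.0143 (SD, n=6) in DMT rats. The highest SD rat, 355 at 0.0993, lay above 1 of the 7 SHAM rats and above 1 of the 6 DMT rats. The ratio was 1.37-fold higher in SHAM than in SD rats (exact p=0.00291, adjusted p=0.0130) and 1.39-fold higher in DMT than in SD rats (exact p=0.00433, adjusted p=0.0130). The SHAM vs SD difference did not pass with all 21 libraries (log2 difference 0.38, exact permutation test, adjusted p=0.0619), where rats 343 and 348 have 1 and 2 counts of Nos3. In that setting alone a fraction of a count was added to every count before division. DMT and SHAM rats differed by a log2 ratio of 0.02 (exact permutation test, adjusted p=0.893).

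The Vegfa to Kdr ratio was 1.64 ± 0.118 (SD, n=6) in SD, 1.81 ± 0.192 (SD, n=7) in SHAM and 2.07 ± 0.247 (SD, n=6) in DMT rats. It lay above the highest SD rat in 4 of 7 SHAM rats and in 5 of 6 DMT rats. The ratio was 1.26-fold higher in DMT than in SD rats (exact p=0.00433, adjusted p=0.0130). The log2 differences were 0.14 in SHAM vs SD (exact permutation test, adjusted p=0.122) and 0.19 in DMT vs SHAM (exact permutation test, adjusted p=0.0962), and neither passed. The smallest p-value these tests allow is 0.000583 with 7 against 6 rats. With 6 against 6 it is above 0.00108, because a division and its mirror image give the same absolute difference.

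**Figure D3:**
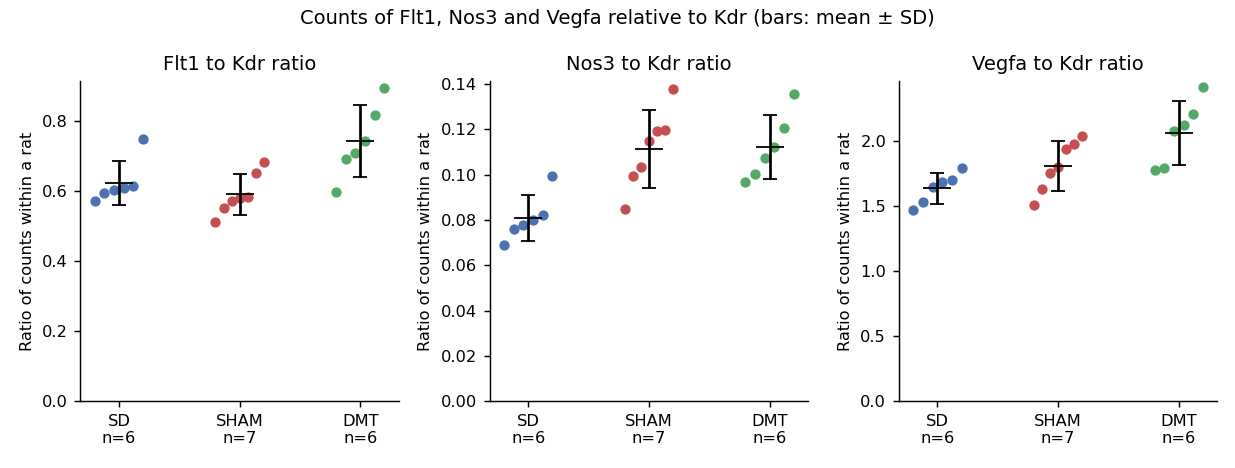
Ratio of the counts of Flt1, Nos3 and Vegfa to the count of Kdr within each rat (y axes, from 0) in SD (n=6), SHAM (n=7) and DMT (n=6) rats. Points are rats and black bars are mean ± SD. The Flt1 to Kdr ratio of 5 of 6 DMT rats lies above the highest SHAM value of 0.683.

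Within groups the 5 genes tended to be high or low in the same rats. In 4 of 19 rats all 5 genes lay above the mean of their group, and in 3 all 5 lay below it. SHAM rat 333 stood furthest out, with all 5 genes 0.43 to 0.57 above the SHAM mean on the log2 scale. That rat also had the lowest total (14502127 counts) and the largest root mean square deviation from its group over all genes, 0.365 against 0.130 to 0.319 in the other rats, and the part of these in the result was not tested. SD rat 353 had all 5 genes above the SD mean (by 0.27 on average), while SHAM rat 340 and SD rat 355 had all 5 below (by an average of -0.28 and -0.22).

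**Figure D4:**
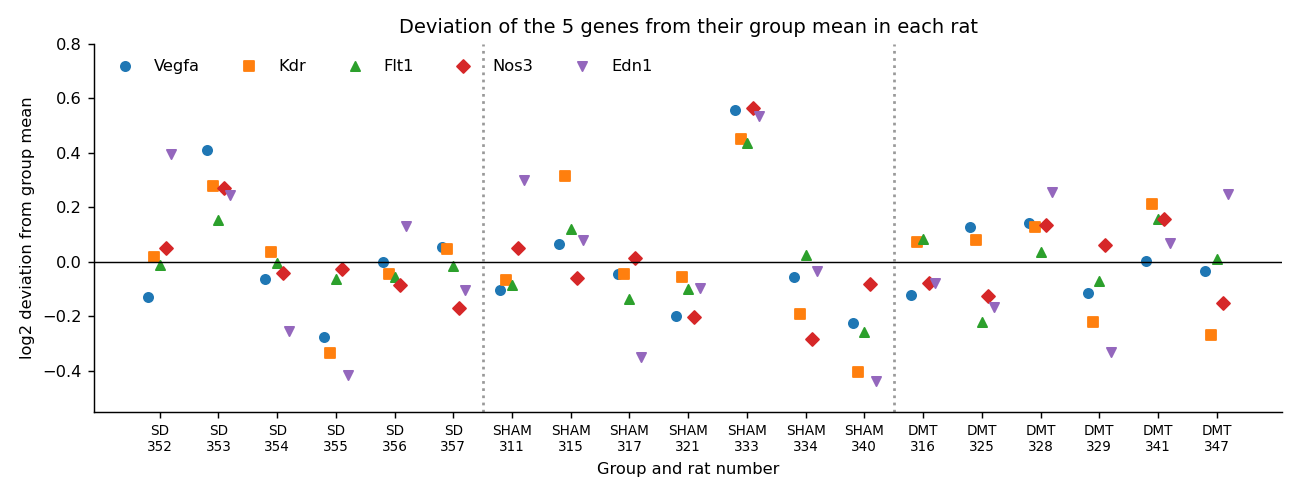
Deviation of the log2 level of each gene from its group mean (y axis) in each of the 19 rats (x axis, group and rat number), with 1 symbol per gene. In SHAM rat 333 all 5 symbols lie between 0.43 and 0.57, above those of every other rat.

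Deviations from the group mean were correlated over the 19 rats for the 10 pairs of genes, with permutation of rats within groups and adjustment over the 10 pairs. Pearson's r ranged from 0.51 (Nos3 and Edn1, p=0.0471, adjusted p=0.0471) to 0.79 (Vegfa and Kdr, p=0.000190, adjusted p=0.00190), and 10 of 10 pairs passed. Spearman's rho was 0.78 for Vegfa and Kdr (p=0.000420, adjusted p=0.00420), 0.67 for Kdr and Flt1 (p=0.00587, adjusted p=0.0293) and 0.59 for Flt1 and Edn1 (p=0.0124, adjusted p=0.0415). The rho of the other 7 pairs ranged from 0.29 to 0.54 and did not pass. Without the 2 rats farthest from the median of the first gene of a pair, r ranged from -0.03 (Vegfa and Nos3) to 0.67 (Vegfa and Kdr). Most of the relations rested on few rats, as 1 of 10 passed without SHAM rat 333 and 3 of 10 without SD rat 353. Vegfa with its receptor Kdr was the pair that passed without rat 333 (r=0.70, adjusted p=0.0193), and it passed when each of the 19 rats was left out in turn. The 5 values of a rat share its library and its scaling. Pairs drawn from all genes were not examined, so the count of pairs that passed cannot be called particular to these genes.

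Among 13513 genes of at least 1 CPM on average, the gene most like Vegfa over the 19 rats was ENSRNOG00000004478 (chr10:12965077-12982440, rn5), with r=0.96 of log2(CPM + 1) and 0.96 after group means were removed. The gene most like Nos3 was ENSRNOG00000017431 (chr19:64452679-64469186, rn5), with r=0.94, and 0.83 after group means were removed. For Vegfa and for Nos3, 29 genes each reached an r of 0.9. For Kdr, Flt1 and Edn1 the highest r was 0.89, 0.87 and 0.85, and no gene reached 0.9.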

How the data were processed

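Renal cortex RNA of 21 rats was sequenced as ribosomal RNA-depleted, stranded paired-end libraries. Per the authors, trimming used Trim Galore 0.4.0 with Cutadapt 1.9, mapping to the rn5 build used STAR 2.5.2b, and fragments over exons were assigned to genes by strand with featureCounts 1.6.4. The deposited values are these counts, with no normalization. Replicates are single rats, grouped by the labels.

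Genes with low counts were removed (edgeR 4.0.16 in R 4.3.3, filterByExpr, minimum count 10, minimum total 15), and libraries were normalised by TMM (factors 0.904 to 1.13), and fitted by the edgeR quasi-likelihood model in one fit of 3 groups. The fit was tested on simulated data. Levels are TMM-normalised CPM. DESeq2 1.42.0, DESeq2 size factors, library totals, other filters, the 2 groups alone, all 21 libraries, no fold threshold, exact permutation tests and leaving out each rat were alternatives. Likeness used log2(CPM + 1) with the highest Pearson r naming a gene, and only 2 identifiers are named because 0 of 26404 identifiers matched the reference table, so that lists of other VEGF, endothelin, nitric oxide and cell type marker genes were not analysed here. All 5 genes are reported whatever their result. Correlations used 100000 permutations. Promoters are from RefSeq (GRCr8; 5 of 5 genes matched by symbol). Ratios, correlations and plots were made in Python 3.11.15 (scipy 1.17.1, numpy 2.4.6, matplotlib 3.10.9). The genes and lists were chosen with earlier results of these data known.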

Additional observations from a re-analysis of the deposited data

Results flagged for a closer look

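Among the 24 combinations of a gene or ratio with a group, 4 had 1 rat far from the others by Dixon's test at the 95% level, where chance gives about 1.2. The combinations share rats and counts, so nothing is read from 4 against 1.2. In SHAM rat 333 Vegfa measured 470 TMM-normalised CPM against 274 to 335 in the other SHAM rats. In the same rat Nos3 measured 28.9 against 16.05 to 20.2 in the others. In SD rat 353 Flt1 measured 114 against 98.0 to 102 in the other SD rats. In SD rat 355 the Flt1 to Kdr ratio was 0.748 against 0.570 to 0.615.

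The 2 SHAM libraries that were left out held reads of the more abundant genes. Rat 343 had 34 counts of Vegfa, 24 of Kdr and 10 of Flt1, and rat 348 had 32, 20 and 11. For Vegfa this equals 279.8 CPM of the library total in rat 343 (95% exact Poisson interval 194 to 391) and 315 CPM in rat 348 (216 to 445), which covers the level of all 3 groups. The intervals cover counting error only. Nos3 had 1 and 2 counts and Edn1 had 0 and 0, so that their level in these libraries was not measurable, as 3 counts equal 24.7 and 29.5 CPM.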

How the results depend on the processing

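Nos3 was called in SHAM vs SD under all 28 alternatives (log2 fold-change 0.46 to 0.71) and in DMT vs SD under all 28 (0.42 to 0.53), and the Flt1 to Kdr ratio passed in DMT vs SHAM under all 14 (0.27 to 0.38). For Nos3 the alternative without the fold threshold reused the main fit and could not lose a call. Leaving out a rat of the group not compared bore on Nos3 only through the shared fit. With library totals alone the median gene was at 0.14 for SHAM vs SD, 0.085 for DMT vs SD and -0.057 for DMT vs SHAM, and calls were 2484 higher and 745 lower in SHAM vs SD (1515 and 1166 with TMM), 1597 and 1182 in DMT vs SD (1174 and 1489) and 483 and 1276 in DMT vs SHAM (604 and 1080). That scaling gave 0.38 for Vegfa in SHAM vs SD (called), -0.014 for Vegfa and -0.051 for Edn1 in DMT vs SHAM, and 0.052 for Kdr in DMT vs SD. The exact permutation test on log2 CPM of library totals gave 0.39 for Vegfa in DMT vs SD (p=0.0152), 0.057 for Kdr in DMT vs SD and -0.026 for Edn1 in DMT vs SHAM. With at least 10 counts in every library, Edn1 in DMT vs SHAM was -0.0012. Without the fold threshold 2975 genes passed for DMT vs SHAM, 5131 for SHAM vs SD and 4682 for DMT vs SD. With all 21 libraries, and a fraction of a count added to every count, the Nos3 to Kdr ratio in SHAM vs SD was 0.38 (exact permutation test, adjusted p=0.0619). Leaving out each rat gave -0.055 to 0.11 for Edn1 and -0.047 to 0.069 for the Nos3 to Kdr ratio in DMT vs SHAM, -0.046 to 0.079 for Flt1 in SHAM vs SD, and, between DMT and SD rats, 0.24 to 0.39 for Vegfa, -0.083 to 0.043 for Kdr and 0.19 to 0.30 for the Flt1 to Kdr ratio. Between 1 and 10 correlations passed, with 1 without SHAM rat 333 and 3 without SD rat 353. The causes were not tested. No paired analysis was possible because each rat has its own number in the labels. Nothing in the labels says whether libraries were prepared together, and p-values measure the spread between these rats. Edn1, with 55 to 138 counts per rat, was the gene most limited by depth.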
